A study of Mus musculus with 29 samples.

Results

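The mammary epithelial genes described here are 34 genes of the luminal and basal layers of the mammary duct, taken from a list of names, out of 30818 genes in the deposited expression table. The list was chosen with earlier results of these data known, so the counts below describe the data and are not independent support. They comprise 10 genes classed here as shared by the epithelial layers, 15 classed as luminal, 3 as genes of secreted or surface proteins and 6 as basal. The tissue was sequenced whole, so the level of each gene in each layer was not measured. All 34 had a normalized count of 10 or more in at least 4 libraries and so entered the tests over 19387 genes in all. A normalized count is a read count divided by its library's size factor.

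The mammary duct is a tube of epithelium within the fat pad. Its inner luminal cells carry simple keratins, are sealed by tight junctions of claudins and, in part, become milk-secreting alveolar cells. Its outer basal cells, also called myoepithelial cells, carry stratified keratins, contract, and rest on the basement membrane. Adhesion molecules such as Epcam and E-cadherin join the epithelial cells, which make up a small part of a tissue that consists mainly of adipocytes.

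RNA-seq was done on mammary tissue of wild-type C57BL/6N mice in 6 diet groups, and the series title sets forms of calorie restriction and a low-fat diet without restriction against obesity. Mice of the LFCR, MCR, ICR, LFD and Obese groups had become obese on a diet with 60% fat (D12492). LFCR mice (5 libraries) then received a low-fat diet with 30% calorie restriction, MCR mice (4) a diet in the Mediterranean style with 30% restriction, ICR mice (5) intermittent calorie restriction and LFD mice (5) a low-fat diet without restriction, while Obese mice (5) stayed obese. Control mice (5) had the control diet D12450J. All mice, Control included, carried a tumor from E0771 cells, a mouse mammary cancer line injected in week 25 into fat pad 4, and the sequenced tissue was fat pad 9 of the other side. The sample titles begin with tumor and the cell type field names mammary cancer, whereas the tissue field, the source name and the design text name normal tissue. Ages, weights and the stage of the cycle were not used here.

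The libraries held 16403903 to 49026986 reads (median 37270234), and the 5 libraries of sequencing lane 4 held the fewest, up to 18212783. The mean of 10 B cell markers was below 9 on the log2 scale in 8 libraries, namely LFCR 1 and 3, MCR 1, 3 and 4, LFD 1, and Obese 1 and 5, and above it in the other 21. The fat pad holds a lymph node, and each count of members was repeated without these 8 libraries. Skeletal muscle markers were highest in Obese 2, LFD 5 and LFCR 5. The defining markers Epcam, Cldn7 and Krt14 were present in all 29 libraries, at 1258 to 6894, 115 to 535 and 529 to 1893 normalized counts. Among transcripts of skin keratinocytes Krt2 was at 0 to 6.17, Flg at 0 to 1.34, Krt1 at 0 to 19.4 and Krt10 at 29.1 to 92.1 normalized counts, whereas Sbsn was at 379.7 to 1507. In bulk tissue fewer cells of a type and less RNA per cell cannot be told apart.

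Promoters are shown for 5 members to show the letters behind a motif count given after them. The motif is the E-box CACCTG, which repressors of epithelial genes of the Snail and Zeb families bind, and its relation to the values was not tested. Each is the 250 bases before the RefSeq transcription start in GRCm38.p6, read in the direction of the gene. Capitals mark CACCTG or its reverse complement CAGGTG. Epcam (chr17:87635729-87635978, plus strand), Spint2 (chr7:29281978-29282227, minus strand), Cldn4 (chr5:134946935-134947184, minus strand), Krt5 (chr15:101712906-101713155, minus strand) and Cldn7 (chr11:69964529-69964778, plus strand) held 2, 3, 1, 1 and 0 copies.
Epcam: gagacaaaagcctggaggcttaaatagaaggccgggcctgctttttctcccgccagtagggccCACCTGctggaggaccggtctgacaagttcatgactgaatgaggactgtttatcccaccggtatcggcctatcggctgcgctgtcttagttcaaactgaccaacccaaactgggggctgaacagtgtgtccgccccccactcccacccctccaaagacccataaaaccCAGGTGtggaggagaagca
Spint2: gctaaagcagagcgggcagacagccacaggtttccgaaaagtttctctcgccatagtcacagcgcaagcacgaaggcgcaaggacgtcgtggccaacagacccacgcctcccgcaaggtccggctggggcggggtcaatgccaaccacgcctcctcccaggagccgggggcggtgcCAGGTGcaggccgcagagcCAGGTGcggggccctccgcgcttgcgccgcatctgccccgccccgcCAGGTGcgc
Cldn4: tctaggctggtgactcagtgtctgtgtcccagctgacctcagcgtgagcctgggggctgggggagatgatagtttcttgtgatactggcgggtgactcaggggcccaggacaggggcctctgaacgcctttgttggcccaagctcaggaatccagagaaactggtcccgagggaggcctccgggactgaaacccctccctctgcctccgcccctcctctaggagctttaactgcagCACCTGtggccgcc
Krt5: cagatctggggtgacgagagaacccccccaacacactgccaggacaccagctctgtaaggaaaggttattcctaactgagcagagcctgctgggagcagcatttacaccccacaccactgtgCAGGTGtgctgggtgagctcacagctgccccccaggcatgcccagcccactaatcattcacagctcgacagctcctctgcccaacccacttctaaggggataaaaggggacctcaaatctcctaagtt
Cldn7: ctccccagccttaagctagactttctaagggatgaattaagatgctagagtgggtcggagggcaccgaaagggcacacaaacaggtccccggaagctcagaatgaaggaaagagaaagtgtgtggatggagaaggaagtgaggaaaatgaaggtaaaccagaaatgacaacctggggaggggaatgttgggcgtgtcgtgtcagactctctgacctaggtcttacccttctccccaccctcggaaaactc
Of the 34 members, 20 matched an entry of this RefSeq table by symbol, and 11 of the 20 (55.0%) held the motif on either strand, against 17.1% of all 27025 promoters and 16.1% of 12676 promoters of tested genes. The motif AACCGGTT, bound by grainyhead-like factors such as Grhl2, was in 0 of the 20 and in 0.122% of all. TGATAAG was found in 1 of the 20 (Krt14) and in 2.13% of all, and CCGGAAGT in 1 (Spint1) and 2.93% of all. A match describes the letters of the window and says nothing of binding.

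The most abundant members per kilobase of exon were luminal genes, but not all luminal genes were abundant. Krt7, at 260 per kb, and Krt15, at 41.0 per kb, lay below the basal Krt5 and Krt14. Over all 29 libraries Krt18 averaged 3757 normalized counts per kb, Krt19 3421, Ly6d 2711 and Krt8 2646. The basal keratins Krt5 and Krt14 averaged 781 and 611 per kb, Epcam 1238 per kb, and the transcription factors Trp63 and Grhl2 71.5 and 44.7 per kb. Nrxn3 had the lowest level of the 34, at 27.1 per kb. Keratins have close paralogs and pseudogenes, and how reads shared between copies were counted is not stated, so their separate values are uncertain.

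For most members the group means were highest in LFD and lowest in Obese. The mean was highest in LFD for 30 of the 34, in ICR for Aldh1a3 and Krt17, and in Control for Dmbt1 and Krt15. The Control mean of Dmbt1 was raised by Control 4, at 70057, and as a mean of log2 values Dmbt1 was highest in LFD, at 14.1, against 13.3 in Control. By means of log2 values 31 members were highest in LFD and 26 lowest in Obese. The mean of normalized counts was lowest in Obese for 27, in LFCR for 6 (Ly6d, Dmbt1, Spint2, Elf3, Lgals7 and Krt15) and in MCR for Krt17. The members differed among the groups in 22 of 34 cases by the F-test of limma, against 33.3% of all genes tested, and this number was 7 without the 8 libraries of low B cell level. Within groups the libraries also varied: LFD 1 was the highest LFD library for 23 members and LFD 2 the lowest for 27, and Control 2 was the lowest Control library for 29.

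**Figure D1:**
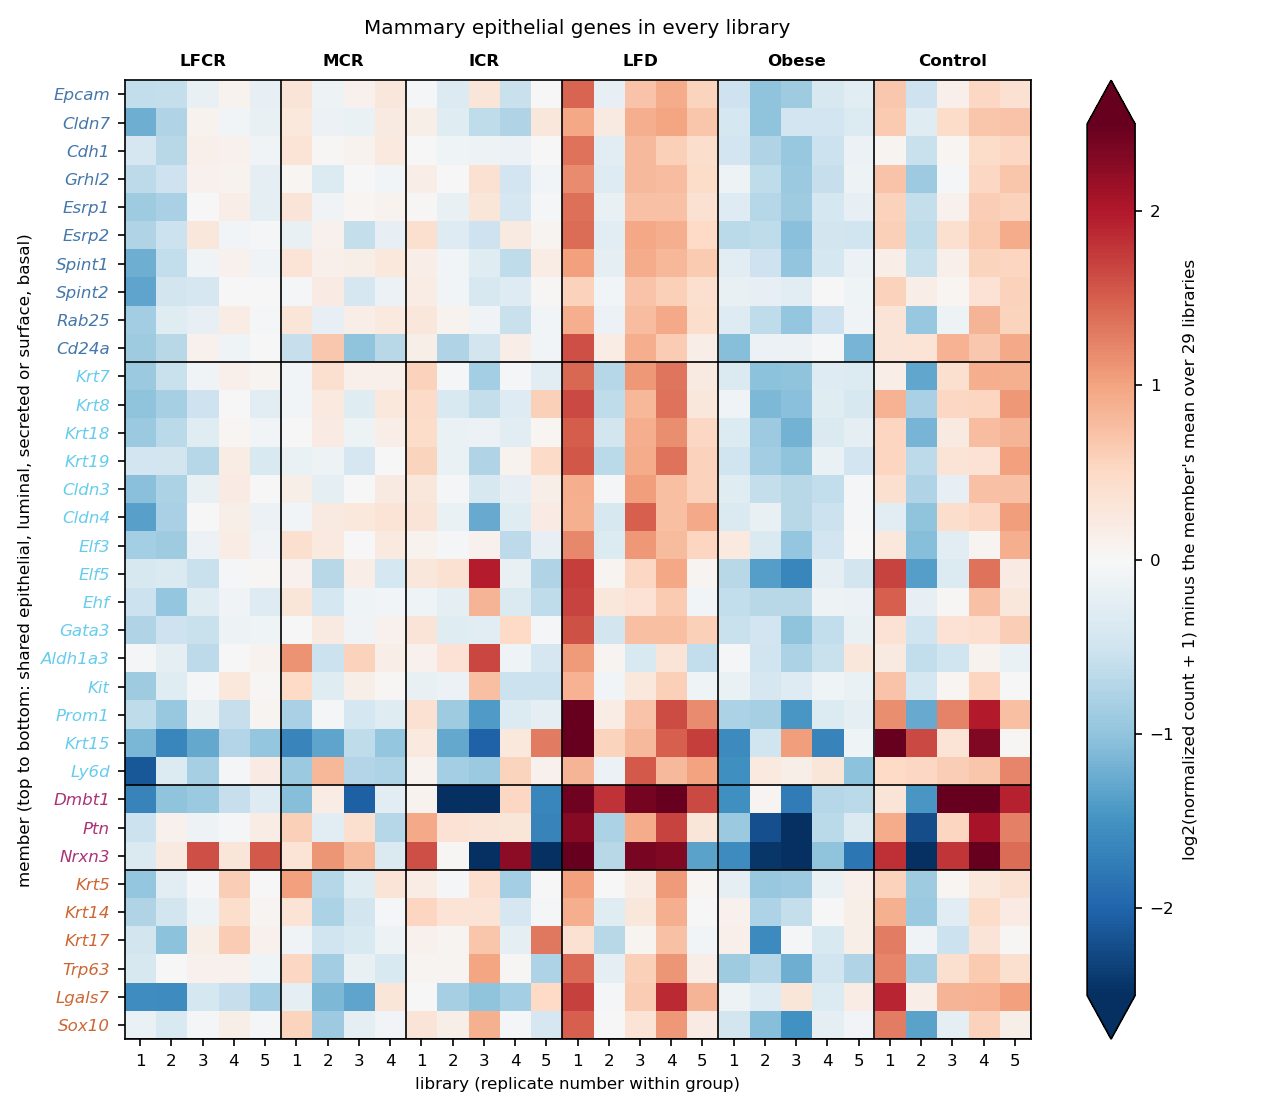
Level of each of the 34 members (rows, by class) in each of the 29 libraries (columns, by group), as log2(normalized count + 1) minus the member's mean over all libraries, with red above and blue below that mean. LFD 1 and most other LFD columns are red, most Obese and LFCR cells are blue, LFD 2 and Control 2 stand below the rest of their groups, and the rows of Dmbt1, Nrxn3 and Krt15 vary most.

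Mice on the low-fat diet without restriction had more RNA of most of these genes than mice that stayed obese. Epcam, the homotypic adhesion molecule of epithelia, had 6894, 2193, 4123, 4810.0 and 3690.1 normalized counts in LFD, against 1762, 1258, 1365, 1895 and 2105 in Obese. Every LFD library lay above every Obese library, the nearest being LFD 2 and Obese 5 (log2 difference 1.29 ± 0.24 SE, adjusted p = 0.00271, limma). In all, 21 of 34 members rose and 0 fell, against 2.7% of all genes tested that rose and 3.28% that fell, 5.98% in all. At an unadjusted p under 0.05 were 31 members, against 20.4% of all genes. The median log2 difference of the members was 1.18, where that of all genes tested was -0.00248. LFD and Obese libraries did not overlap for 13 of 34 members, 13 higher and 0 lower in LFD, against 2.42% of all genes higher and 3.02% lower.

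Of the 10 genes classed as shared by the epithelial layers, 9 rose in LFD relative to Obese. The tight junction gene Cldn7 had 527, 314, 508, 535 and 436 normalized counts in LFD, against 200.4, 133, 193, 194 and 213 in Obese (log2 difference 1.19 ± 0.22 SE, adjusted p = 0.00271). The lowest LFD library, LFD 2, lay above the highest Obese library. Of the 15 luminal genes 8 rose, with the keratins Krt7, Krt8, Krt18 and Krt19 between 1.27 and 1.35 on the log2 scale. Of the 6 basal genes 2 rose, the transcription factors Trp63 and Sox10. The 28 members that are not basal had a median log2 difference of 1.20 and the 6 basal members one of 0.90.

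The largest called difference of LFD from Obese was that of Dmbt1, a secreted scavenger-receptor glycoprotein of epithelial surfaces. It had 18945, 12193, 18235, 32652 and 10929.6 normalized counts in LFD, against 1212, 3662, 1043, 2146 and 2184 in Obese (log2 difference 3.20 ± 0.77 SE, adjusted p = 0.015). The lowest LFD library lay well above the highest Obese library. The call was lost without LFD 4 (adjusted p = 0.0522). It was also lost without the 8 libraries of low B cell level and with the epithelial covariate described further on.

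The count of 21 was 21 with lane as a term, and in the 4 lanes with a library of both groups 30 to 34 of the 34 members were higher in the LFD library. Without LFD 4 it was 9, without the 8 libraries of low B cell level 3 and with only the libraries of LFD and Obese in the fit 3. Over all genes tested, leaving out 1 library gave 456 to 1634 calls, against 1159 with all libraries. Calls of 9 members held whichever single library was left out: Epcam, Cldn7, Cdh1, Esrp1, Esrp2, Spint1, Cldn3, Gata3 and Prom1. Of all 21, Cldn7 alone also kept its call in every other alternative run for it. By limma 0 of 7 adipocyte and 0 of 10 B cell markers passed, and 0 of each had an unadjusted p under 0.05, with median log2 differences of 0.10 and 0.59. Of 5 endothelial, 5 macrophage and 5 keratinocyte markers, 1 each passed and was lower in LFD, namely Pecam1, Cd68 and Dsg1a, at log2 differences of -0.47, -0.99 and -1.06 (adjusted p = 0.00631, 0.0294 and 0.00949, limma), and their part in the result was not tested.

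**Figure D2:**
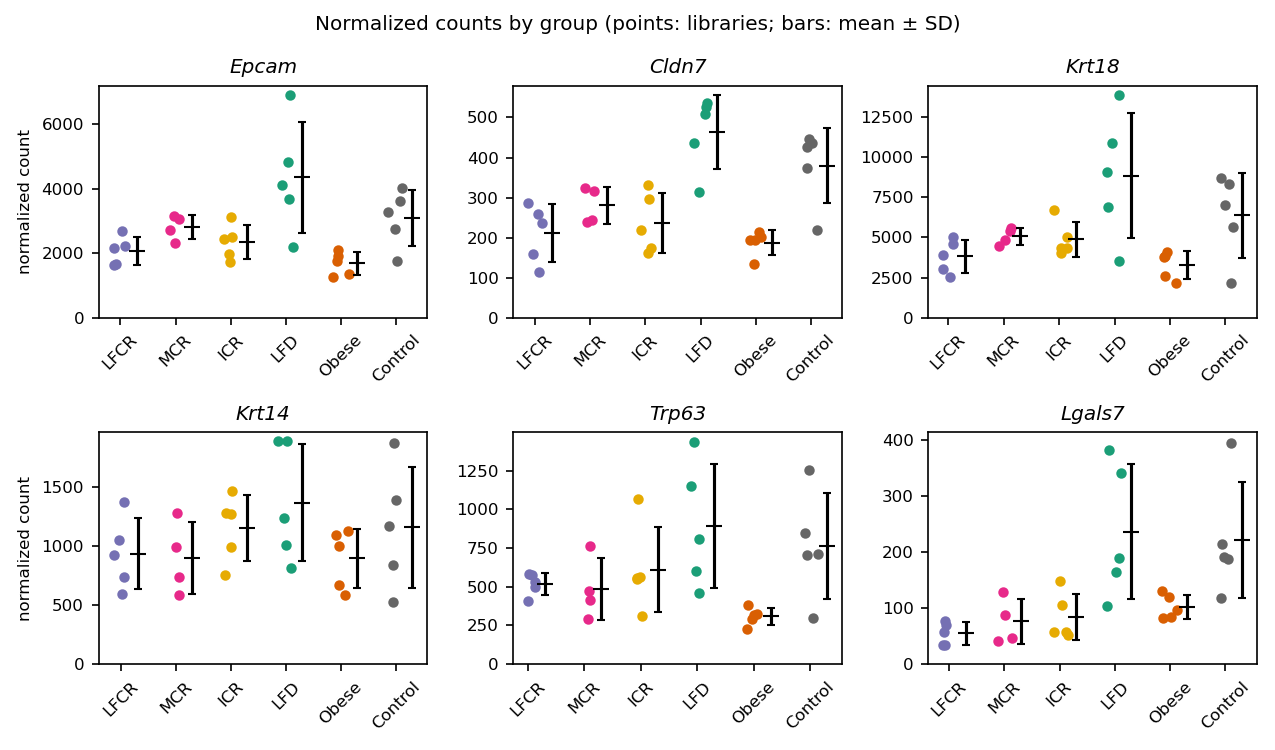
Normalized counts (vertical axis, from 0) of Epcam, Cldn7 and Krt18 and of the basal genes Krt14, Trp63 and Lgals7 by group, with 1 point per library and bars for mean ± SD. The mean is lowest in Obese for Epcam and Trp63 and in LFCR for Lgals7, and for Krt14 the groups overlap.

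Mice that stayed obese were set against mice on the control diet. Of the 34 members 13 fell in Obese relative to Control and 0 rose, against 3.44% of all genes tested that fell and 9.44% that rose, 12.9% in all. At an unadjusted p under 0.05 were 26 members, against 28.9% of all genes, and the median log2 difference was -0.83, where that of all genes was -0.03. Obese and Control libraries did not overlap for 4 members, all lower in Obese, against 2.83% of all genes lower and 6.32% higher. The Obese libraries are shared with the comparison of LFD and Obese.

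Cldn7 had 200.4, 133, 193, 194 and 213 normalized counts in Obese, against 426, 219, 373, 437 and 446 in Control (log2 difference -0.91 ± 0.22 SE, adjusted p = 0.00885). Control 2, the lowest Control library, was still above every Obese library. The splicing factors Esrp1 and Esrp2, which set the epithelial forms of many transcripts, fell by 0.74 and 0.97 on the log2 scale (adjusted p = 0.0454 and 0.0155, limma). The shared epithelial genes gave 6 of 10 falls, the luminal genes 4 of 15 (Ehf, Gata3, Prom1 and Krt15) and the basal genes 1 of 6 (Trp63). The luminal keratins had log2 differences of -0.82 to -1.03, and none of the 4 passed.

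Nrxn3, a neurexin best known as a synaptic adhesion molecule, had the largest difference. It had 53.6, 29, 1.71, 79.9 and 45.5 normalized counts in Obese, against 569.8, 14.3, 556, 1037 and 428 in Control (log2 difference -2.67 ± 0.90 SE, adjusted p = 0.04995). Control 2 lay within the Obese range while the other 4 Control libraries lay far above it. The call was at the threshold and was lost without any 1 of Obese 1, 2, 3 and 5 or Control 1, 3, 4 and 5 (adjusted p = 0.0759 to 0.119, limma). The Nrxn3 call was also lost in 9 of 11 other alternatives, among them lane as a term, quantile normalization and no filter on low values.

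The count of 13 was 3, 8, 6 and 8 without Obese 1, 2, 3 and 5, and 4, 7, 5 and 4 without Control 1, 3, 4 and 5, whereas it was 25 without Control 2. It was 1 without the 8 libraries of low B cell level, 4 with only the libraries of Obese and Control in the fit, 8 without the filter on low values, 10 with lane as a term and 16 with the B cell mean as a covariate. Cldn7 alone kept its call whichever library was left out. Over all genes tested, leaving out 1 library gave 1090 to 3377 calls, against 2496 with all libraries. In 4 lanes with both groups, 34, 32, 15 and 34 of the 34 members were not higher in the Obese library, and the lane with 15 is the one that holds Control 2 and Obese 2. Beside these falls, 3 of 7 adipocyte markers and all 5 red blood cell markers were higher in Obese, 4 of 5 endothelial markers were too, and 0 of 10 B cell markers passed (0 at an unadjusted p under 0.05) at a median of -2.34. Their part in the result was not tested beyond the B cell fits.

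On the 3 calorie-restricted diets, taken as the mean of their group means, members were lower than on the low-fat diet without restriction. Of the 34 members 12 fell and 0 rose, against 1.65% of all genes tested that fell and 1.68% that rose, 3.33% in all, and 26 members had an unadjusted p under 0.05, against 20.3% of all genes. The median log2 difference was -0.75, with -0.02 for all genes. The members' ranges did not overlap for 1 of 34, against 0.165% of all genes lower and 0.129% higher, and that member was Dmbt1.

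Dmbt1 had 1096, 1739, 1829, 2357 and 2792 normalized counts in LFCR, 1670.2, 3979, 848 and 2855 in MCR and 3704, 434, 452, 5001 and 1122 in ICR, against 10929.6 to 32652 in LFD (log2 difference -3.31 ± 0.63 SE, adjusted p = 0.00808). Every library of the 3 restricted diets lay below every LFD library. The call held whichever library was left out, but not without the 8 libraries of low B cell level or with the epithelial covariate described further on. Prom1, a pentaspan membrane protein of luminal cells, fell by 1.63 and Krt15 by 1.61 on the log2 scale, and Cldn7 and Epcam fell by 0.89 and 0.78. Of the shared genes 6 of 10 fell, of the luminal genes 4 of 15 and of the basal genes 1 of 6, the galectin gene Lgals7.

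The count of 12 was 2, 5 and 3 without LFD 1, 3 and 4, 23 without LFD 2, 7 and 6 without MCR 1 and MCR 3, 7 with the skeletal muscle mean as a covariate and 9 with lane as a term. With the B cell mean as a covariate it was 21, and without the 8 libraries it was 0. The fit without them keeps 1 MCR library, which is then assumed to vary like the other groups. Over all genes tested, leaving out 1 library gave 100 to 1760 calls, against 645 with all libraries.

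**Figure D3:**
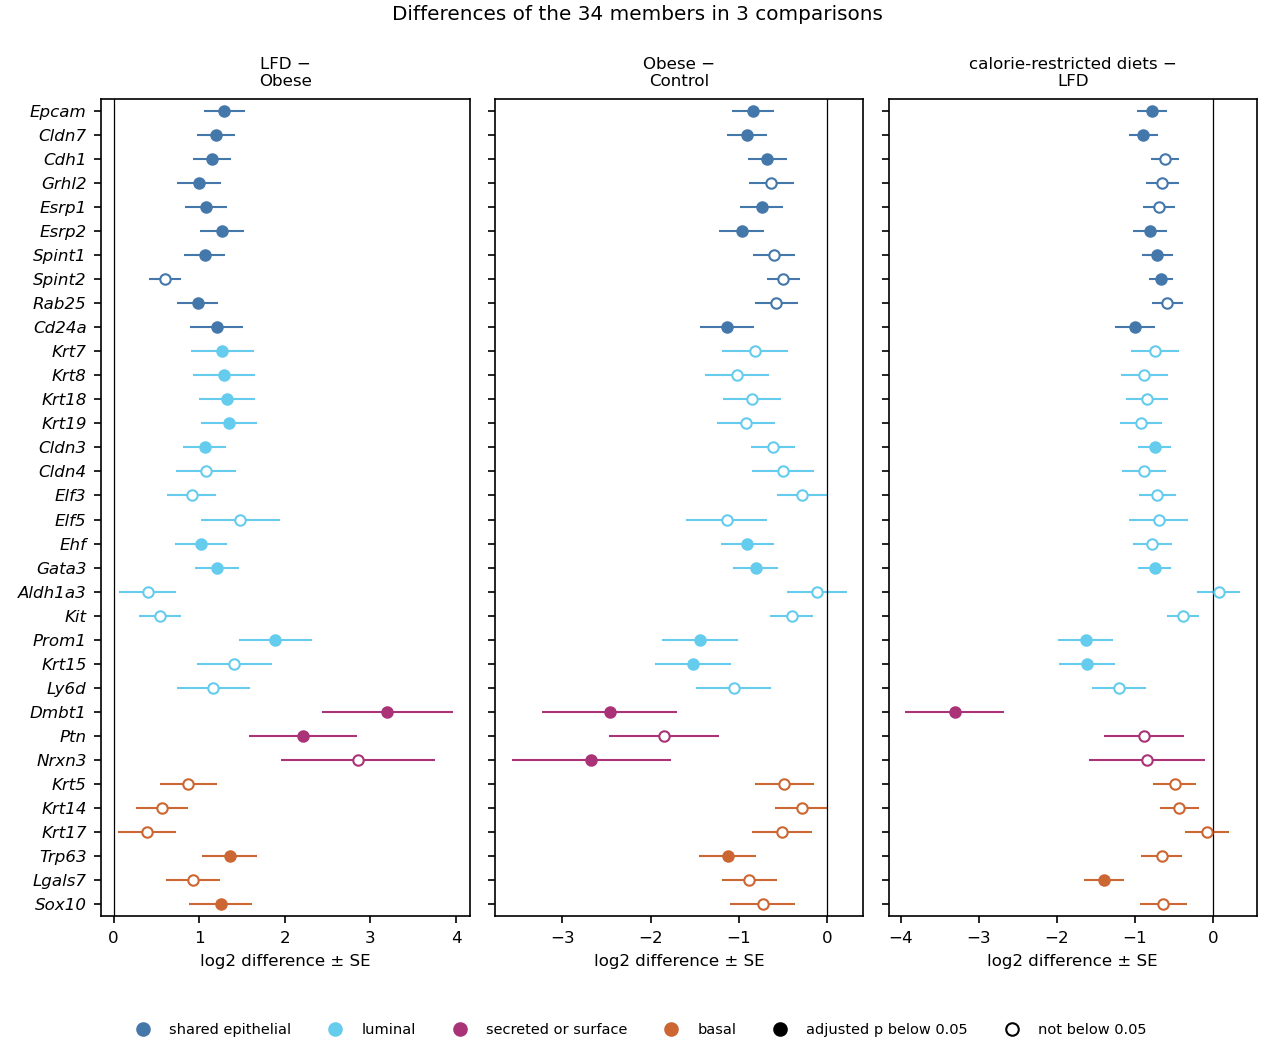
Log2 difference ± SE of each of the 34 members (rows, colored by class) in 3 comparisons: LFD minus Obese, Obese minus Control, and the calorie-restricted diets minus LFD, with filled points where the adjusted p was below 0.05. All 34 points lie right of 0 for LFD minus Obese and left of 0 for Obese minus Control, and Dmbt1 has the largest difference in the outer 2 panels.

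Each restricted diet was also set against Obese, which these comparisons share with each other. In LFCR 0 of 34 members passed, against 21.4% of all genes tested (11.9% higher, 9.42% lower), with 0 by voom, a limma fit on the recovered reads. There 3 members, against 33.1% of all genes, had an unadjusted p under 0.05, and LFCR and Obese did not overlap for 3 members. Nrxn3 and Trp63 were the 2 higher ones, against 8.82% of all genes, and Lgals7 the lower one, against 6.23%. In ICR 0 passed, against 9.21% of all genes (3.99% higher, 5.23% lower), with 0 by voom and 7 at an unadjusted p under 0.05, against 23.1% of all genes. ICR and Obese did not overlap for 1 member, Cdh1, higher in ICR, against 4.32% of all genes higher and 4.52% lower. In MCR 1 rose, against 6.66% of all genes tested that rose, 5.69% that fell and 12.4% in all, with 2 by voom and 8 at an unadjusted p under 0.05, against 26.3% of all genes. The members' median log2 differences were 0.18 in LFCR, 0.50 in MCR and 0.42 in ICR.

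The member called in MCR was Cdh1, the gene of E-cadherin, which joins epithelial cells at adherens junctions. It had 3481, 2815, 2917 and 3263 normalized counts in MCR, against 1979, 1647, 1425, 1900.2 and 2498 in Obese (log2 difference 0.73 ± 0.23 SE, adjusted p = 0.0394), and the 4 MCR libraries lay above all 5 Obese libraries. The call was lost without Obese 1, 2, 3 or 4, without MCR 1, 3 or 4, with lane as a term, with the B cell covariate and without the 8 libraries. Cdh1 had 2060.0, 1715, 3007, 2973 and 2598 normalized counts in LFCR and 2747, 2561, 2509, 2501 and 2765 in ICR (log2 difference 0.37 ± 0.22 SE, adjusted p = 0.249 for LFCR, log2 difference 0.49 ± 0.22 SE, adjusted p = 0.178 for ICR). In LFD it had 7047, 2287, 4835, 4169 and 3752 and in Control 2906, 1878, 2869, 3793 and 3963. MCR and Obese did not overlap for 9 members, all higher in MCR, against 6.42% of all genes higher and 4.56% lower.

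Leaving out 1 library gave 3215 to 4382 calls over all genes for LFCR, 1202 to 4507 for MCR and 1192 to 2013 for ICR. Among the members, the count for MCR was 0 without Obese 1 to 4, MCR 1, MCR 3 or MCR 4, and 2 without Obese 5 or MCR 2. For ICR it was 1 without ICR 5, 2 with lane as a term and 4 with the B cell covariate. For LFCR it was 0 whichever single library was left out. With only the libraries of the 2 groups in the fit it was 3 for LFCR, 5 for MCR and 0 for ICR, and without the 8 libraries of low B cell level it was 0 for each.

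Against Control, members were called in the 3 restricted diets and not in LFD. The mean of the restricted diets was set directly against LFD above, whereas each restricted diet alone was not tested against LFD. In LFD 0 of 34 members passed and 0% of all genes tested passed, with 2 members and 2425 genes (12.5%) at an unadjusted p under 0.05, and voom called 0 members and 0 genes. Without the 8 libraries of low B cell level 0 members passed as well. LFD and Control did not overlap for 0 members, against 1.16% of all genes higher and 1.57% lower. The members' median log2 difference of LFD from Control was 0.35. In LFCR 11 members fell and 0 rose, against 18% of all genes tested that fell and 20.1% that rose, 38.1% in all. In MCR 4 members fell, against 15.7% of all genes that fell, 13.9% that rose and 29.6% in all. In ICR 2 fell, against 0.882% of all genes that fell, 3.69% that rose and 4.58% in all. At an unadjusted p under 0.05 were 17 members in LFCR, 7 in MCR and 8 in ICR, against 49.9%, 43.7% and 24.6% of all genes. These shares of the members were near those of all genes in LFCR and ICR and below it in MCR. In MCR the share of members called lower was also below that of all genes. The libraries did not overlap with Control, with lower values, for 5 members in LFCR, 1 in MCR and 1 in ICR, against 8.88%, 2.71% and 2.95% of all genes lower and 12.2%, 4.08% and 4.62% higher. The medians were -0.56 in LFCR, -0.34 in MCR and -0.30 in ICR. These 4 comparisons share the Control libraries.

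The members called in LFCR relative to Control included Cldn7, Spint2, Krt15 and Lgals7, which held their calls whichever single library was left out. Spint2, an inhibitor of membrane-anchored serine proteases, had 709, 1288, 1323, 1755 and 1764 normalized counts in LFCR, against 2622, 1982, 1841, 2288 and 2622 in Control (log2 difference -0.77 ± 0.19 SE, adjusted p = 0.00379). No LFCR library reached the lowest Control library. Spint2 had 1727, 2031, 1316 and 1594 normalized counts in MCR, 1999, 1680.1, 1344, 1420.5 and 1813 in ICR, 2653, 1695, 2904, 2687 and 2349.7 in LFD and 1559, 1529, 1455, 1767 and 1647 in Obese. In Obese it was within a narrow range, and it was among the 6 members lowest in LFCR.

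Krt15, an epithelial keratin, had 18.7, 13, 16.9, 25.1 and 21.2 normalized counts in LFCR and 12.8, 16.4, 26.9 and 21.2 in MCR, against 402, 136, 54.4, 217 and 43.5 in Control (log2 difference -1.91 ± 0.43 SE, adjusted p = 0.0026 for LFCR, log2 difference -1.91 ± 0.46 SE, adjusted p = 0.0102 for MCR). All LFCR and MCR libraries lay below all Control libraries. Its mean over all libraries, 72.5 normalized counts, was the lowest of the 34 members, and at this level a log2 difference on the deposited scale understates the change. The MCR and ICR calls against Control were those of Krt15, Cd24a, Dmbt1 and Lgals7 in MCR, and of Dmbt1 and Lgals7 in ICR. The largest of these differences was that of Dmbt1, at -2.35 in MCR and -2.92 in ICR (adjusted p = 0.035 and 0.0306, limma), with 4352, 1274, 22417, 70057 and 13305 normalized counts in Control. Control 1 and Control 2 lay within the range of the restricted libraries, and the other 3 Control libraries above it. The Dmbt1 call was lost in MCR without MCR 1, 3 or 4 or Control 1, 3, 4 or 5, and in ICR without ICR 2 or 3 or Control 1, 3, 4 or 5 (adjusted p = 0.0504 to 0.134, limma).

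Leaving out libraries moved these counts as well. It also moved the calls over all genes, to 4364 to 8157 in LFCR, 547 to 9117 in MCR and 149 to 1518 in ICR. For LFCR and Control the count of 11 was 7, 19 and 7 without Control 1, 2 and 4, 5 and 7 without LFCR 1 and 2, and 5 without the 8 libraries of low B cell level. For MCR and Control the 4 became 2, 7, 1 and 2 without MCR 1, 2, 3 and 4, and 0 without the 8 libraries or with the B cell covariate. For ICR and Control the 2 became 0, 1 and 1 without Control 1, 4 and 5, 1, 0, 0, 1 and 4 without ICR 1 to 5 in that order, and 7 without the 8 libraries. Adipocyte markers were higher in 7, 6 and 6 of 7 cases in LFCR, MCR and ICR relative to Control, and all 10 B cell and all 8 T cell markers were lower in MCR relative to Control. Their part in these results was not tested beyond the fits named.

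Among the shared epithelial genes, Esrp1 followed Epcam most closely. Esrp1 had 379, 401, 710.4, 793 and 595 normalized counts in LFCR, 878, 664, 729 and 752 in MCR and 724, 618, 869, 524 and 693 in ICR. It had 1822, 616, 1176, 1171 and 922 in LFD, 561, 431, 381, 518 and 611 in Obese and 1057, 464, 761, 1084 and 1046 in Control (log2 difference 1.08 ± 0.24 SE, adjusted p = 0.0104 for LFD relative to Obese). LFD 2, at 616, was only just above the highest Obese library, and Control 2 lay within the Obese range. Epcam itself had 1633, 1665, 2221, 2684 and 2171 normalized counts in LFCR, 3152, 2313, 2717 and 3044 in MCR, 2427, 1985, 3118, 1708 and 2491 in ICR and 4011, 1759, 2742, 3602 and 3266 in Control. The protease inhibitor Spint1 and the vesicle-traffic GTPase Rab25 rose by 1.06 and 0.98 on the log2 scale in LFD relative to Obese, as did Grhl2, a transcription factor of epithelial junction genes, by 0.99.

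Among the luminal genes Krt19, Krt18 and Krt8 had the highest mean normalized counts over all libraries. Krt18, the partner of Krt8 in simple epithelial filaments, had 2545, 3055, 3936, 5017 and 4617 normalized counts in LFCR, 4833, 5599, 4455 and 5421 in MCR and 6689, 4315, 4363, 4016 and 5028 in ICR. It had 13865, 3521, 9085, 10898 and 6933 in LFD, 3856, 2601, 2131, 3762 and 4088 in Obese and 7019, 2177, 5681, 8354 and 8701 in Control. The LFD range was wide, with LFD 2 inside the Obese range and LFD 1 far above it (log2 difference 1.33 ± 0.33 SE, adjusted p = 0.0171 for LFD relative to Obese). The claudins Cldn3 and Cldn4, which tighten the luminal seal, differed by 1.06 and 1.08 in LFD relative to Obese, and Cldn3 passed while Cldn4 did not (adjusted p = 0.0135 and 0.0635, limma).

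Gata3, the factor that maintains luminal fate, had 1270.2, 1492, 1449, 1969 and 1992 normalized counts in LFCR, 2119.6, 2483, 2014 and 2307 in MCR and 2667, 1727, 1748, 3037 and 2065 in ICR. It had 6476, 1565, 3587, 3619 and 3220.0 in LFD, 1456, 1541, 1059, 1394 and 1871 in Obese and 2729.5, 1513, 2731, 2854 and 3297 in Control. LFD 2 and Control 2 were at the Obese level and the rest of their groups above it (log2 difference 1.20 ± 0.25 SE, adjusted p = 0.00682 for LFD relative to Obese, log2 difference -0.81 ± 0.25 SE, adjusted p = 0.0368 for Obese relative to Control). Elf5, the factor of alveolar differentiation, averaged 1078 ± 582 normalized counts in LFD and 353 ± 135 in Obese (SD, n = 5 each; log2 difference 1.48 ± 0.46 SE, adjusted p = 0.0563), with no overlap. Among the Ets factors, Ehf rose in LFD relative to Obese and Elf3 had a difference of 0.92 (adjusted p = 0.0425 and 0.0563, limma).

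Of the genes of luminal subsets, Prom1 passed in 4 of the 10 comparisons, and Kit and Aldh1a3 in 0 by limma and 0 by voom. Prom1 had 324, 259, 441, 337 and 523 normalized counts in LFCR, 286, 483, 369 and 407 in MCR and 651, 271, 186, 397 and 422 in ICR. It had 2809, 573, 819.8, 1565 and 1142 in LFD, 289, 280.5, 181, 396 and 427 in Obese and 1119.7, 208, 1189, 1973 and 846 in Control. LFD lay wholly above Obese (log2 difference 1.89 ± 0.43 SE, adjusted p = 0.0107), and Control overlapped Obese through Control 2 (log2 difference -1.44 ± 0.43 SE, adjusted p = 0.027). Kit, the receptor of stem cell factor that luminal progenitors and mast cells carry, differed by 0.55 in LFD relative to Obese (adjusted p = 0.206, limma), and Aldh1a3, a retinaldehyde dehydrogenase, by 0.40 (adjusted p = 0.577). At an unadjusted p under 0.05, Kit was called in 1 comparison and Aldh1a3 in 0, and by limma 0 of 7 mast cell markers passed in each.

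The secreted and surface genes Dmbt1, Ptn and Nrxn3 ranged over 434 to 70057, 366 to 11298 and 1.71 to 1401 normalized counts. Ptn, a heparin-binding growth factor, had 1624, 2524, 2146, 2262 and 2658 normalized counts in LFCR, 3545, 1956, 3087 and 1425 in MCR and 4516, 3029, 2937, 2883 and 738 in ICR. It had 11298, 1354, 4486, 7561 and 2899 in LFD, 1233, 513, 366, 1463 and 1818 in Obese and 4462, 504, 3396, 9726 and 5587 in Control (log2 difference 2.21 ± 0.63 SE, adjusted p = 0.0356 for LFD relative to Obese, log2 difference -1.85 ± 0.63 SE, adjusted p = 0.0505 for Obese relative to Control). LFD 2, Control 2 and ICR 5 were low against the rest of their groups. Nrxn3 had 124, 189, 493, 199 and 465 normalized counts in LFCR, 205, 348, 278 and 126 in MCR, 491, 165, 19.4, 760.4 and 14.1 in ICR and 1401, 98.7, 839, 808 and 63.5 in LFD. LFCR and MCR lay above every Obese library for it, whereas ICR and LFD overlapped Obese.

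Among the basal genes, the transcription factors Trp63 and Sox10 and the galectin Lgals7 passed in at least 1 comparison and the 3 keratins in none. Trp63, a transcription factor that specifies basal cells, had 406, 533, 580.2, 578 and 495 normalized counts in LFCR, 764, 294, 473 and 412 in MCR and 558, 562, 1069, 551 and 314 in ICR. It had 1436, 461, 805, 1148 and 600.3 in LFD, 289, 326, 229, 381 and 316 in Obese and 1252, 300.2, 705, 847 and 712 in Control. LFD lay above Obese in every library (log2 difference 1.36 ± 0.32 SE, adjusted p = 0.0137), and Obese was lower than Control (log2 difference -1.13 ± 0.32 SE, adjusted p = 0.0215) with Control 2 inside the Obese range. The call of LFD relative to Obese was lost without LFD 4 (adjusted p = 0.0508, limma), and that of Obese relative to Control without Control 1 or Obese 1 (adjusted p = 0.0839 and 0.0587, limma). Both calls were also lost with only the groups compared, without the 8 libraries of low B cell level and with the epithelial covariate described further on.

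Sox10, a transcription factor of basal cells and luminal progenitors that Schwann cells also use, had 734, 633, 805, 915 and 811 normalized counts in LFCR, 1215, 439.7, 692 and 789.6 in MCR and 1028, 908, 1521, 798 and 618 in ICR. It had 2329, 823, 1039, 1740.3 and 951 in LFD, 598, 393, 289, 696 and 785 in Obese and 1996, 325, 703, 1226 and 914 in Control (log2 difference 1.25 ± 0.37 SE, adjusted p = 0.0413 for LFD relative to Obese). LFD did not overlap Obese, and Control 1 was second to LFD 1. The call was lost without LFD 1, 3, 4 or 5 or Obese 1, 2 or 3 (adjusted p = 0.0561 to 0.117, limma). It was also lost by voom, without the filter on low values, with only LFD and Obese in the fit and without the 8 libraries of low B cell level. The mean of 7 Schwann markers on the log2 scale was 8.75 to 9.99 in LFD, 8.48 to 9.59 in Obese and 7.91 to 9.28 in Control. It was highest of the LFD libraries in LFD 1 and lowest of all in Control 1, and its part in the result was not tested. By limma 0 of the 7 passed in LFD relative to Obese (2 at an unadjusted p under 0.05).

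The basal keratins Krt5, Krt14 and Krt17 passed in 0 of the 10 comparisons by limma and in 0 by voom, and at an unadjusted p under 0.05 Krt5 did in 1 and the others in 0. Krt14 had 596, 738, 920.0, 1372 and 1053 normalized counts in LFCR, 1276, 582, 735 and 989.7 in MCR and 1466, 1282, 1275, 755 and 993 in ICR. It had 1885, 814, 1236, 1893 and 1011 in LFD, 1092, 588, 667, 1004 and 1125 in Obese and 1868, 529, 841, 1387 and 1172 in Control (log2 difference 0.57 ± 0.30 SE, adjusted p = 0.302 for LFD relative to Obese). The groups overlapped in each of the 10 comparisons. Krt5, the filament partner of Krt14, had 808, 1327, 1539, 2418 and 1597 in LFCR, 3235, 963, 1293 and 1997 in MCR and 1818, 1554, 2117, 883 and 1607 in ICR. It had 3234, 1604, 1797, 3312 and 1652 in LFD, 1366, 822, 843, 1418 and 1742 in Obese and 2358, 861, 1633, 1905 and 2065 in Control (log2 difference 0.87 ± 0.33 SE, adjusted p = 0.124). LFD 4, MCR 1 and LFD 1 were the highest. Krt17, a keratin of basal and stressed epithelium, had 250.3, 168, 379.5, 534 and 371 in LFCR, 323, 244, 265 and 316 in MCR and 372, 363, 554, 291 and 859 in ICR. It had 447, 212, 361, 571 and 327 in LFD, 376, 114, 330.1, 265 and 382 in Obese and 841, 325, 236, 433 and 353 in Control (log2 difference 0.39 ± 0.34 SE, adjusted p = 0.59). ICR 5 and Control 1 stood highest.

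Lgals7, a galectin of stratified epithelia, was the basal member called lower on the restricted diets. It had 34.8, 34.6, 77.5, 70.1 and 57.3 normalized counts in LFCR, 88.7, 47.4, 41.4 and 129 in MCR and 106, 58.3, 51.7, 57.3 and 148 in ICR, against 343, 103, 164, 383 and 190.4 in LFD (log2 difference -1.39 ± 0.26 SE, adjusted p = 0.00768). In Obese it had 96, 83.8, 130.0, 82.2 and 119.9 and in Control 396, 118, 188, 192 and 215. The LFCR libraries all lay below every Obese, LFD and Control library, and LFD 2 overlapped the MCR and ICR ranges. Relative to Control it fell by 1.59 in LFCR, 1.29 in MCR and 1.17 in ICR on the log2 scale (adjusted p = 0.00112, 0.0125 and 0.0337, limma). The LFCR call held whichever single library was left out, that in MCR was lost without MCR 3, and that in ICR without ICR 1, 2, 3 or 4 or Control 1 or 5 (adjusted p = 0.0515 to 0.133, limma). Of 5 keratinocyte markers tested, Krt1, at 0 to 19.4 normalized counts, also fell on the restricted diets relative to LFD (log2 difference -0.74, adjusted p = 0.0254, limma), and its part in the result was not tested.

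The mean of Epcam, Cldn7, Cdh1 and Krt8 was also entered as a covariate, which leaves 30 members to test. By limma 0 of the 30 passed in LFD relative to Obese, in Obese relative to Control and in the restricted diets relative to LFD, with 1, 3 and 5 at an unadjusted p under 0.05. In LFD relative to Obese, 9 called differences changed sign with it and in Obese relative to Control 1 did. Lgals7 passed in 5 comparisons and was lower each time: by 0.92, 1.06 and 0.73 in LFCR, MCR and ICR relative to Obese, and by 0.95 and 1.09 in LFCR and MCR relative to Control, on the log2 scale. Krt15 passed in LFCR and MCR relative to Control, Krt14 was lower in MCR than in Obese by 0.70 (adjusted p = 0.0438, limma), Spint2 was lower in LFCR than in Control by 0.44, and Cd24a, Dmbt1 and Prom1 were lower in MCR than in Control. The covariate is made of members and adjusts away what they share with the rest.

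Within groups most members varied from library to library with Epcam, itself classed here as shared by the layers. How many of all genes tested varied with Epcam was not computed, so this is not shown to be particular to the members. With group means removed, Pearson's r over 29 libraries was 0.953 for Esrp1, 0.915 for Grhl2 and 0.876 for Krt14 (Spearman's rho was 0.92, 0.867 and 0.864; adjusted permutation p = 2.357e-05 for the 3 Pearson values and 3e-05 for the 3 Spearman values). The raw p of 1e-05 is the smallest that 100000 permutations can give, and 33 relations were tested. The permutations ran freely over the 29 libraries after group means were removed. They took no account of lane or of unequal spread between groups, so these p-values may be too small. Without LFD 2 and Control 2, the libraries farthest from the median, r was 0.927, 0.864 and 0.849. The basal genes Sox10 and Krt5 also had r above 0.8, at 0.834 and 0.83 (Spearman's rho 0.86 and 0.908; adjusted permutation p = 2.357e-05 for r and 3e-05 for rho). With lane means removed as well as group means, r was 0.924 for Esrp1, 0.863 for Grhl2, 0.838 for Krt14, 0.759 for Sox10 and 0.807 for Krt5. Epcam lay below its group mean in 4 of 5 libraries in each of lanes 4 and 5, and in 1 library in each of the other lanes.

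For Ly6d, Cd24a, Dmbt1 and Krt15 the relation with Epcam did not pass, with r of 0.0283, 0.2, 0.204 and 0.231 (adjusted permutation p = 0.8845, 0.3115, 0.3113 and 0.25; Spearman's rho -0.113, 0.0773, 0.0882 and 0.153, adjusted permutation p = 0.5956, 0.688, 0.6684 and 0.4721). For Cldn4 and Nrxn3, r was 0.451 and 0.415 (adjusted permutation p = 0.01638 and 0.02899; Spearman's rho 0.297 and 0.303, adjusted permutation p = 0.1343 and 0.1308), and 0.122 and 0.152 without the 2 libraries, so these relations rest on them. With lane means removed too, r was 0.313, 0.35, 0.26 and 0.168 for Ly6d, Cd24a, Dmbt1 and Krt15 and 0.557 and 0.367 for Cldn4 and Nrxn3.

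**Figure D4:**
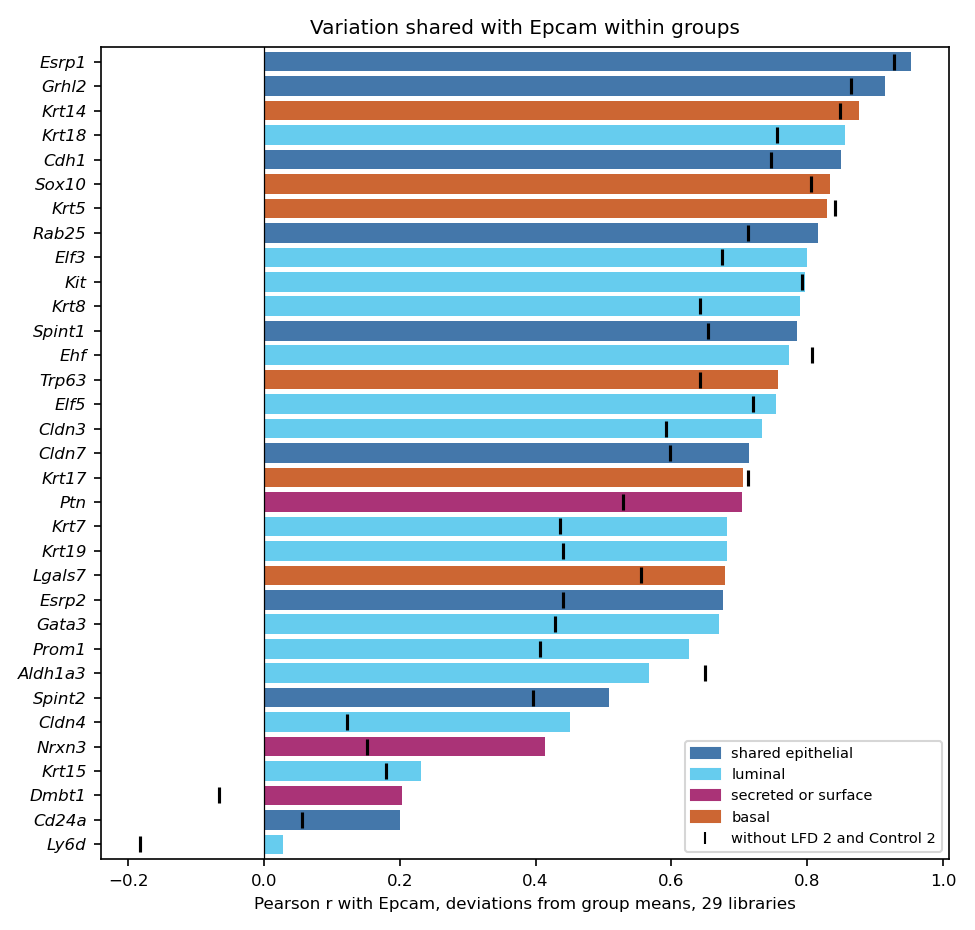
Pearson's r of each other member with Epcam over 29 libraries, as deviations from group means (bars, colored by class), with a tick for r without LFD 2 and Control 2. Basal genes stand among the shared and luminal genes at the top, and Ly6d, Cd24a, Dmbt1 and Krt15 are at the bottom.

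Ly6d and Cd24a, surface proteins of epithelium that B lineage cells also carry, were high or low with B cell transcripts within MCR and Obese. Ly6d had 909, 3054, 1029.7 and 1007 normalized counts in MCR, where MCR 2 is the one library with a high B cell mean. In Obese it had 596, 2044, 1905, 2136 and 842, and Obese 1 and 5, of low B cell mean, were lowest. Cd24a had 2951, 6973, 2174 and 2719.7 in MCR and 2086, 3963, 3963, 4277 and 1962 in Obese, with the same libraries apart, but 13417 in LFD 1, the highest of all, where the B cell mean was low. In LFCR, Cd24a had 2366, 2720, 4712, 4072 and 4423, highest in LFCR 3 and lowest in LFCR 1, both of low B cell mean. With the B cell covariate the log2 difference of LFD from Obese was 1.05 for Ly6d and 1.16 for Cd24a (adjusted p = 0.0224 and 0.011, limma), and without the 8 libraries it was 0.56 and 0.58 (adjusted p = 0.338 and 0.169).

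ICR 3 stood apart from the other libraries in genes of milk secretion. It had 4333 normalized counts of Csn1s1 and 14402 of Csn3, both caseins, where no other library was above 98.9 and 2980.4. Elf5 was highest of the 29 libraries there, at 2369, as was Aldh1a3, at 4097, whereas Krt15 was lowest, at 9.7. Epcam was at 3118, within the range of the LFD and Control groups. The calls of Dmbt1 and Lgals7 in ICR relative to Control were lost without ICR 3 (adjusted p = 0.0641 and 0.0645, limma).

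**Figure D5:**
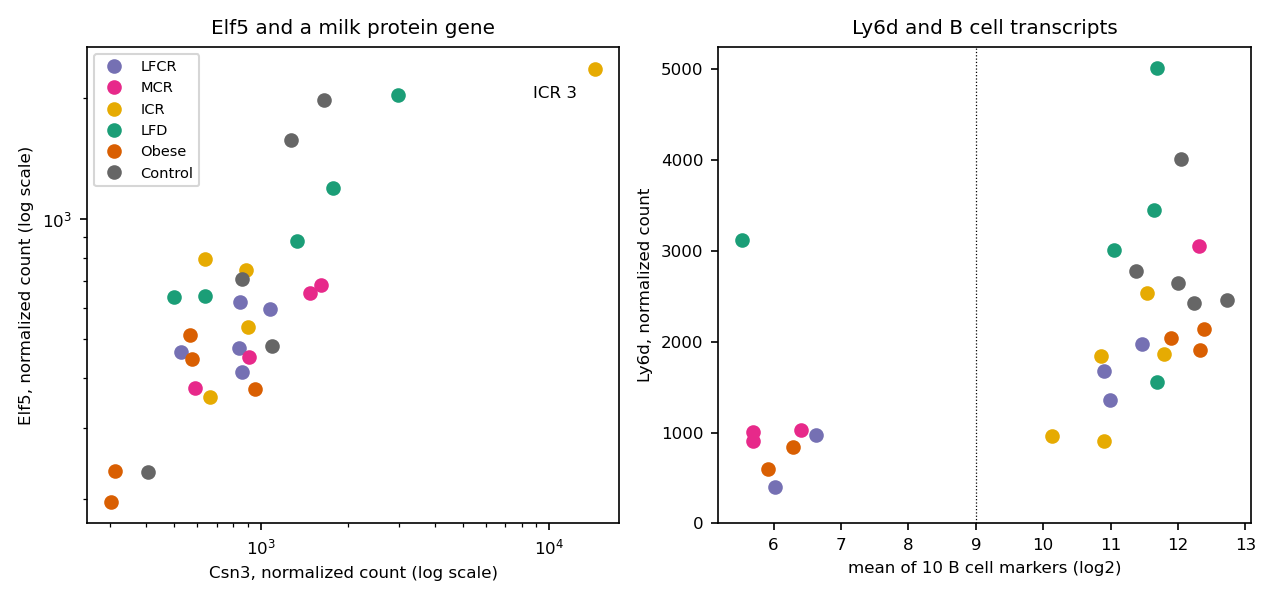
Left, Elf5 against the casein gene Csn3 in each library, both as normalized counts on log axes, with ICR 3 labelled. Right, Ly6d (normalized counts) against the mean of 10 B cell markers (log2), with a dotted line at 9. ICR 3 is at the upper right of the left panel, and the 8 libraries left of the line have at most 1029.7 counts of Ly6d but for LFD 1.

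Other epithelial genes, from lists chosen with earlier results of these data known, were counted beside the members. In LFD relative to Obese, where 2.7% of all genes tested rose and 3.28% fell, 6 of 17 junction and desmosome genes rose and 0 fell, among them the tight junction adaptor Cgn (1.23 on the log2 scale) and Marveld3 (1.16). Of 10 epithelial surface and protease genes 6 rose, with Cdcp1 at 1.11 and Lad1 at 1.10, and of 10 epithelial transcription factors 5 rose, with Tfap2a at 1.09 and Irx4 at 1.06. Of 10 genes of hormone-sensing luminal cells 4 rose, led by Prlr, the prolactin receptor (1.38), and Foxa1 (1.28). By voom 4 transcription factors and 3 hormone-sensing genes rose. Of 10 genes of basal adhesion 0 passed by limma and 0 by voom, with 6 at an unadjusted p under 0.05. Of 8 contractile genes of myoepithelium 1 fell by limma, Oxtr, the oxytocin receptor (-1.14), and 0 by voom. Of 6 mesenchymal genes 0 passed by limma and 0 by voom, with 1 at an unadjusted p under 0.05. Without the 8 libraries of low B cell level 1 transcription factor rose and no other gene of these lists passed.

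In Obese relative to Control, where 3.44% of all genes fell and 9.44% rose, 6 of the 17 junction genes fell, with Marveld3 at -0.89 and Cgn at -0.84, and 1 rose, Jup, the gene of plakoglobin (0.94). Of the surface and protease genes 4 of 10 fell, with Lad1 at -0.95 and Cdcp1 at -0.85. Of the hormone-sensing genes 2 of 10 fell, the growth factor Areg (-2.69) and the progesterone receptor Pgr (-2.05). Of the transcription factors 0 of 10 passed by limma, with 1 by voom and 3 at an unadjusted p under 0.05. By voom 7 junction, 5 surface and protease and 1 hormone-sensing genes fell. Of the 10 basal adhesion genes 1 rose, Dst (1.18), and of 8 contractile genes 1 rose, Oxtr (1.08), both shares near that of all genes. Of the 6 mesenchymal genes 2 rose, Vim (0.77) and Snai1 (0.64). Without the 8 libraries 2 surface and protease genes fell, 1 junction and 1 basal adhesion gene rose, and no other gene of these lists passed.

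In the restricted diets relative to LFD, where 1.65% of all genes fell and 1.68% rose, 4 of 17 junction genes fell, with Tjp3 and Marveld3 at -0.75 and -0.74. Of the surface and protease genes 4 of 10 fell (Cdcp1 -0.78, Lad1 -0.72), of the transcription factors 1 of 10 (Ovol2 -0.53) and of the basal adhesion genes 2 of 10 (Cdh3 -0.95, Lamb3 -0.73). Of the hormone-sensing, contractile and mesenchymal genes 0 passed by limma and 0 by voom, with 6, 0 and 0 at an unadjusted p under 0.05. Without the 8 libraries 0 genes of these lists passed.

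In the restricted diets relative to Obese, 1 of 10 hormone-sensing genes rose in each and 0 fell. The gene was Esr1, the estrogen receptor, at 1.45, 1.23 and 1.12 in LFCR, MCR and ICR, where 11.9%, 6.66% and 3.99% of all genes rose. Of the 8 contractile genes 2, 2 and 1 fell, where 9.42%, 5.69% and 5.23% of all genes fell. Oxtr fell in all 3 diets, by 1.61, 1.77 and 1.49, and the smooth muscle actin gene Acta2 fell in LFCR and MCR, by 0.78 and 0.83, while Cnn1 rose in ICR, by 0.96. Of the 10 basal adhesion genes 2 fell in LFCR and 2 in MCR, Dst (-0.69 and -0.92) and Lamb3 (-0.84 and -0.74). Ppl rose in ICR (0.81) as 1 of 17 junction genes, with 0 in LFCR and MCR, and Snai1 fell in LFCR (-0.88) as 1 of 6 mesenchymal genes, with 0 in MCR and ICR. By voom 0 junction genes rose in ICR, and 1 basal adhesion gene fell in each of LFCR and MCR. Without the 8 libraries Esr1's list had 1, 0 and 1 rises in LFCR, MCR and ICR, the contractile list 0, 0 and 1 falls and the basal adhesion list 1, 0 and 0 falls. Esr1, Oxtr, Acta2 and Cnn1 were named after their values were seen. Esr1 is also expressed in fat and stroma, and the cells that gave the RNA of Esr1, Oxtr, Acta2 and Cnn1 were not tested.

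In GRCm38, whose chromosome coordinates mm10 shares, Epcam lies on chromosome 17 from 87635979 to 87651129 (plus strand), Cldn7 on chromosome 11 from 69964779 to 69967885 (plus strand) and Cdh1 on chromosome 8 from 106603351 to 106670246 (plus strand). Krt14 lies on chromosome 11 from 100203162 to 100207548 (minus strand), Trp63 on chromosome 16 from 25683763 to 25892102 (plus strand), Lgals7 on chromosome 7 from 28863853 to 28866284 (plus strand) and Dmbt1 on chromosome 7 from 131032053 to 131121630 (plus strand). The luminal keratin genes Krt8 and Krt18 lie close together on chromosome 15, from 101996698 to 102004482 and from 102028180 to 102032027. The luminal keratin genes Krt19 and Krt15 lie on chromosome 11, as does the basal Krt14. All 34 members are annotated as protein-coding, each at 1 locus. The values are per gene and do not tell isoforms apart.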

How the data were processed

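Total RNA was extracted with TRIzol and sequenced as stranded, paired reads of 76 bases, per the labels' protocols. Per the submitters' processing notes, the tools were TopHat2 2.0.7, HTSeq 0.5.3p9 and DESeq2 with mm10, which name no counting options or annotation. The values the authors deposited are normalized expression on the log2 scale. The values have the form of a variance-stabilising transform, which no source used here states. With its closed form undone, 100% of values were whole read counts within 0.01 of a read in each library, and normalized counts were computed from them. Lanes were read per the file headers.

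Groups came from the treatment labels, and the p-values measure the spread between libraries. Each library has its own number in its title, which was taken here as that of an animal. Differences were tested with limma 3.58.1 (R 4.3.3, statmod 1.5.0; mean-variance trend, robust moderation) on the deposited log2 values, with 1 mean per group over all 29 libraries. Genes with a normalized count of 10 or more in at least 4 libraries were kept, and p-values were adjusted by Benjamini and Hochberg over all of them, with a threshold of 0.05. The fits were tested on simulated data. The alternatives were log2(normalized count + 1), no filter, a filter at 50, quantile normalization, voom on recovered reads with the table's own size factors, lane, B cell, muscle or epithelial level as a term, only the groups compared, leaving out the libraries of low B cell level, and leaving out each library. Correlations used two-sided permutation tests, and removing lane means was added after seeing the data.

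The members and lists were chosen with earlier results of these data known. Values in every library are given for Epcam, Cldn7 and Krt14, the member of largest called difference in each comparison, every basal member and 1 member per role. Other members named with values were added after their values were seen. Of the other lists, the 2 largest called differences are given. Ly6d, Cd24a, Oxtr, Esr1 and the milk genes are named outside this rule. 1 gene of the basal adhesion list is not reported here, and the counts of that list leave it out.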

Additional observations from a re-analysis of the deposited data

Results flagged for a closer look

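Of 204 sets of libraries, each 1 member in 1 group, 7 held a library far from the rest of its group by Dixon's test, where chance gives about 1 in 20. Of the 7, 3 were in Control 2. There Cldn7 had 219 normalized counts, against 373 to 446 in the other Control libraries, Gata3 had 1513, against 2729.5 to 3297, and Nrxn3 had 14.3, against 428 to 1037. In Control 5, Ly6d was high, with 4016 normalized counts, against 2427 to 2774 in the others. In Obese 2, Cldn7 was low, with 133 normalized counts, against 193 to 213 in the other Obese libraries. In MCR 2, the MCR library of high B cell level, Ly6d had 3054 normalized counts, against 909 to 1029.7 in the others. In ICR 5, Ptn had 738 normalized counts, against 2883 to 4516 in the other ICR libraries.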

How the results depend on the processing

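No paired analysis by replicate number was possible because the titles number each library differently and the replicate numbers only follow the order of the samples. Sequencing lane, which holds at most 1 library of each group, is a block, and with lane as a term the counts were 21 for LFD relative to Obese, 10 for Obese relative to Control, 9 for the restricted diets relative to LFD, 12, 4 and 2 for LFCR, MCR and ICR relative to Control, 0, 0 and 2 for LFCR, MCR and ICR relative to Obese, 0 for LFD relative to Control and 24 for any difference. Leaving out 1 library gave 9 to 29 called members for LFD relative to Obese (21 with all libraries), 3 to 25 for Obese relative to Control (13), 2 to 23 for the restricted diets relative to LFD (12), 5 to 19 for LFCR relative to Control (11), 1 to 7 for MCR relative to Control (4), 0 to 4 for ICR relative to Control (2), 0 to 2 for MCR relative to Obese (1), 0 to 1 for ICR relative to Obese (0), and 17 to 29 for any difference (22). It stayed at 0 for LFCR relative to Obese and for LFD relative to Control. Without the libraries of low B cell level the counts were 3 for LFD relative to Obese, 1 for Obese relative to Control, 0 for the restricted diets relative to LFD, 5 for LFCR, 0 for MCR and 7 for ICR relative to Control, 0 for MCR relative to Obese and 7 for any difference. With only the groups compared they were 3 for LFD relative to Obese, 4 for Obese relative to Control, 3 for LFCR and 5 for MCR relative to Obese, and 0 for MCR and 1 for ICR relative to Control. With the B cell covariate they were 21 for the restricted diets relative to LFD, 0 for MCR and 4 for ICR relative to Obese, and 0 for MCR and 4 for ICR relative to Control. Without a filter they were 8 for Obese relative to Control, 0 for MCR relative to Obese and 1 for ICR relative to Control. For MCR relative to Obese the count was 2 with a filter at 50, with voom and with quantile normalization. The muscle covariate gave 7 for the restricted diets relative to LFD. The cause was not tested, except that fits without the libraries of low B cell level and fits of only the groups compared rest on fewer libraries. The voom fit used the table's own scaling and was chosen after seeing the data; the planned one with TMM scaling was not run. Over all genes, the fits of only the groups compared gave 140 calls for LFD relative to Obese (1159 in the fit over all groups), 1082 for Obese relative to Control (2496) and 1 for MCR relative to Control (5730). Without the libraries of low B cell level these were 171, 628 and 0, and the restricted diets relative to LFD gave 4 (645). With the epithelial covariate the log2 difference of LFD from Obese changed sign for Grhl2 (-0.16), Esrp1 (-0.075), Spint1 (-0.035), Rab25 (-0.067), Krt7 (-0.39), Krt18 (-0.27), Krt19 (-0.082), Cldn3 (-0.052) and Sox10 (-0.029), and that of Obese from Control for Esrp1 (0.069). Without the libraries of low B cell level, Cd24a had 0.037 in MCR relative to Control. Depth was lowest in lane 4, which limits low members such as Krt15 and Nrxn3 most.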
